A study of Mus musculus with 14 samples.

Results

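The cells compared here were untreated mouse embryonic stem cells of 2 genotypes: TKO cells, labelled Dnmt-TKO, and WT cells, labelled wild type, of the parental J1 line. Embryonic stem cells are pluripotent cells grown from the early embryo. The labels give both genotypes the same strain background (J1 129S4/SvJae) and no treatment. The Dnmt-TKO line is known to carry deletions in the 3 genes for the active DNA methyltransferases, Dnmt1, Dnmt3a and Dnmt3b. The labels do not say whether the TKO cells were 1 clone, and they number the replicates without saying that these were separate cultures. All p-values therefore measure only the spread between these libraries, which may be technical. Poly(A)-selected RNA was sequenced in 4 libraries of the 14 in the series, 2 per genotype, and the spread between replicates was estimated together with 2 libraries of another genotype (Tet1KO_TKO) in the same table. The comparison took in every gene with enough counts in these 4 libraries, 15776 of the 37991 gene IDs in the count table. The TKO libraries held 34270373 and 30071029 counts, and the WT libraries held 28043647 and 23354015 counts.

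DNA methylation in mammals is laid down on cytosines that precede guanines (CpG sites) by DNMT3A and DNMT3B, and DNMT1 copies it to the new strand at each cell division. Methylated promoters rich in CpG sites are as a rule silent, and the mark is best known for holding germline genes, the silent copy of imprinted genes and many transposons off. Embryonic stem cells are unusual among mammalian cells in that they survive and divide without any of these enzymes.

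Levels below are CPM, counts scaled to a common library total and corrected with TMM factors, given for replicates 1 and 2 of each genotype. A fold change is TKO over WT on the log2 scale with its standard error (SE) from edgeR's quasi-likelihood fit. "Rose" and "fell" are used of genes called at a Benjamini-Hochberg adjusted p under 0.05 over all genes tested. Most list members named below were picked by a rule that required called genes with groups that did not overlap. Separation of the groups at such genes thus follows from the rule and is no added support. Because RNA came from whole cultures, fewer cells of one kind and less RNA per cell cannot be told apart. Strand was not known, so reads in an exon shared with a neighbouring gene cannot be assigned. Such neighbours are named beside many of the genes they touch, but not beside all of them.

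Several features moved with the genotype or with single libraries and touch what follows. Genes of chromosome 1 had a median log2 fold change of -0.46 and those of chromosome 8 one of 0.29, while medians of the other autosomes lay between -0.08 and 0.06. All 7 tested Y-linked genes rose, where 26.5% of all genes did. Of the 9 in the table, 7 were below 1 CPM in both WT libraries, so some entered the test through their TKO level. The 9 summed to 293 and 266 CPM in TKO cells, against 7.69 and 8.4 CPM in WT cells. WT replicate 2 had more mitochondrially encoded RNA, whose 15 genes summed to 52200 and 54300 CPM in TKO cells, against 41800 and 71200 CPM in WT cells. Primitive endoderm markers differed within both genotypes: all 7 summed to 48.6 and 82.5 CPM in TKO cells, against 113 and 198 CPM in WT cells. The 10 stem cell markers, Pou5f1 and Nanog among them, were all above 1 CPM in every library and summed to 6420 and 6410 CPM in TKO cells, against 7230 and 7750 CPM in WT cells. Of 9 fibroblast or feeder markers, 7 were below 1 CPM in both WT libraries, and all 9 summed to 5.8 and 7.18 CPM in TKO cells, against 10.7 and 9.63 CPM in WT cells.

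Transcript levels differed between TKO and WT cells at many genes. Of 15776 genes, 8095 were called (51.3%), of which 4177 rose (26.5% of all tested) and 3918 fell (24.8%). Both TKO libraries lay above both WT libraries at 38.5% of genes and below them at 38%, so that separation of the groups alone is common. Large changes leaned upward: 2269 genes rose by more than 2-fold (14.4%) and 1362 fell by more than 2-fold (8.63%). Tested against a 2-fold change itself, with edgeR's glmTreat, 1465 genes lay above it and 581 below. The gene with the smallest p was H19, a long noncoding RNA, and the next 4 among the named rising genes were Crmp1, Klhl13, Stmn2 and Lncenc1. The 5 falling genes with the smallest p were Islr2, Igsf21, Fbxo2, Cavin1 and Rap2a.

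The deleted genes were still transcribed at a reduced level. Dnmt1, the maintenance methyltransferase, had 117 and 128 CPM in TKO cells, against 386 and 304 CPM in WT cells. It fell by 1.49 ± 0.118 on the log2 scale (edgeR adjusted p = 1.59e-06), and both TKO libraries lay far below both WT libraries. Dnmt3b, a de novo methyltransferase, had 36.4 and 41.1 CPM in TKO cells, against 107 and 118 CPM in WT cells (log2 fold change -1.54 ± 0.112, edgeR adjusted p = 8.21e-07). Dnmt3a, the other de novo enzyme, had 37.9 and 37.5 CPM in TKO cells, against 70.6 and 76.8 CPM in WT cells (log2 fold change -0.97 ± 0.144, edgeR adjusted p = 0.000187), and it overlaps an antisense transcript, Dnmt3aos. The groups did not overlap at any of the 3. Counts over a whole gene do not show whether the deleted part was transcribed, so these values check the labels only as far as the transcripts being lower.

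Dnmt3l, which encodes a catalytically inactive partner of the de novo enzymes, went the other way. It had 607 and 620.3 CPM in TKO cells, against 70.2 and 90.8 CPM in WT cells, and both TKO libraries were several times above both WT libraries. The difference was 7.63-fold (log2 fold change 2.93 ± 0.1197, edgeR adjusted p = 1.67e-08), and Dnmt3l overlaps Aire on the other strand. Among the 33 genes of the DNA methylation machinery, all of them tested, 6 rose (18.2%) and 11 fell (33.3%). Over all genes 26.5% rose and 24.8% fell. The median log2 fold change of the 33 was -0.05, against -0.01 over all genes. Without TKO replicate 1 the number that rose was 3.

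The only other riser past 2-fold was Gadd45g, a stress-induced gene linked to demethylation, with 5.798 and 5.24 CPM in TKO cells, against 0.949 and 1.54 CPM in WT cells (log2 fold change 2.17 ± 0.264). Hells, a chromatin remodeller needed for methylation, had 708 and 602 CPM in TKO cells, against 453 and 490.4 CPM in WT cells (log2 fold change 0.47 ± 0.107, edgeR adjusted p = 0.00319). That call did not pass without TKO replicate 1, where the adjusted p was 0.0872. Tet1, which oxidises methylated cytosine, had 791 and 743 CPM in TKO cells, against 591 and 524 CPM in WT cells (log2 fold change 0.46 ± 0.156, edgeR adjusted p = 0.0274). Its adjusted p was between 0.0662 and 0.129 when either TKO library or WT replicate 2 was left out. Tet2, of the same enzyme family, moved the opposite way, with 154 and 139 CPM in TKO cells, against 259 and 228 CPM in WT cells (log2 fold change -0.73 ± 0.112), and overlaps a gene model on the other strand. Uhrf1, which brings DNMT1 to newly copied DNA, had 433 and 398 CPM in TKO cells, against 462 and 354 CPM in WT cells. Its groups overlapped, and neither it nor Tet3 passed the test.

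Some proteins that bind methylated DNA were lower. Mbd2, a protein that binds methylated CpG sites, had 17.8 and 18.5 CPM in TKO cells, against 42.1 and 45.1 CPM in WT cells (log2 fold change -1.26 ± 0.112, edgeR adjusted p = 3.61e-06). Zbtb4, another methyl-CpG binder, fell by 1.39 on the same scale. Zfp57, which keeps methylation at imprinted regions, had 256 and 239 CPM in TKO cells, against 532 and 528 CPM in WT cells (log2 fold change -1.10 ± 0.0992, edgeR adjusted p = 4.30e-06). Both TKO libraries were below both WT libraries for each of these 3 genes. Mbd3, of the same family as Mbd2, moved the opposite way, with 155 and 160.3 CPM in TKO cells, against 123 and 110.5 CPM in WT cells (log2 fold change 0.43 ± 0.0977, edgeR adjusted p = 0.003).

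Among germline genes listed as silenced by promoter methylation, rises outnumbered falls. All 46 listed genes passed the count filter, 26 rose (56.5%) and 9 fell (19.6%), against 26.5% and 24.8% over all genes. Their median log2 fold change was 0.65. Only 7 of the 46 were below 1 CPM in both WT libraries, so most were not silent in these WT cells. The 46 summed to 673 and 770 CPM in WT cells, against 1220 and 1230 CPM in TKO cells. By more than 2-fold, 18 rose and 4 fell. Asz1, a germ cell protein of the piRNA pathway that silences transposons, was all but absent from WT cells: it had 9.63 and 9.05 CPM in TKO cells, against 0.0351 and 0 CPM in WT cells. That was 1 count in both WT libraries together, and its fitted log2 fold change of 8.65 is accordingly loose (edgeR adjusted p = 3.28e-08). Fkbp6, a co-chaperone of the same pathway, had 30.2 and 29.01 CPM in TKO cells, against 1.05 and 1.45 CPM in WT cells, a difference of 23.9-fold (log2 fold change 4.58 ± 0.198, edgeR adjusted p = 8.54e-09). For both genes the TKO libraries lay together, far above the WT libraries.

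Tdrd12, a Tudor-domain protein of piRNA biogenesis, had 88.4 and 89.9 CPM in TKO cells, against 7.38 and 7.78 CPM in WT cells, a difference of 11.8-fold (log2 fold change 3.56 ± 0.107, edgeR adjusted p = 1.04e-09). Dazl, an RNA-binding protein that licenses germ cells for gamete formation, had 55.96 and 51.1 CPM in TKO cells, against 11.5 and 10.9 CPM in WT cells, a difference of 4.76-fold (log2 fold change 2.25 ± 0.1095, edgeR adjusted p = 3.78e-08). The replicates of both genes stood close together within each genotype. Smc1b, the cohesin subunit of meiosis, had 41.5 and 51.7 CPM in TKO cells, against 6.78 and 6.81 CPM in WT cells (log2 fold change 2.78 ± 0.1599, edgeR adjusted p = 1.29e-07). Hormad1, a meiotic chromosome axis protein, had 71.8 and 84.8 CPM in TKO cells, against 13.4 and 24.1 CPM in WT cells (log2 fold change 2.07 ± 0.205, edgeR adjusted p = 9.63e-06). WT replicate 2 stood well above WT replicate 1 at this gene, but the groups stayed apart. Usp26, Dpep3, Nxf2 and Tex101 were each below 1 CPM in both WT libraries and rose by between 2.75 and 4.03 on the log2 scale.

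Several of the best known germline genes did not rise. Ddx4, the germ cell RNA helicase also called mouse vasa homologue, had 27.8 and 27.97 CPM in TKO cells, against 29.4 and 35.6 CPM in WT cells (log2 fold change -0.22 ± 0.123, edgeR adjusted p = 0.156), and without WT replicate 1 it was called lower (log2 fold change -0.37, adjusted p = 0.0362). Mael, a piRNA factor on chromosome 1, had 14.04 and 14.9 CPM in TKO cells, against 19.6 and 24.2 CPM in WT cells and fell (log2 fold change -0.59 ± 0.1397, edgeR adjusted p = 0.00397). Sycp3, a component of the synaptonemal complex that overlaps Chpt1 on the other strand, had 2.84 and 2.65 CPM in TKO cells, against 4.32 and 6.64 CPM in WT cells (log2 fold change -0.99 ± 0.2598). Its adjusted p of 0.00767 was 0.0822 without WT replicate 2. Brdt, a testis-specific bromodomain protein, had 0.654 and 0.485 CPM in TKO cells, against 9.91 and 11.9 CPM in WT cells and fell by 4.24 ± 0.286 on the log2 scale (edgeR adjusted p = 2.47e-07). At Brdt both TKO libraries were below 1 CPM and both WT libraries close to 10 CPM or above it, the reverse of Asz1.

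**Figure D1:**
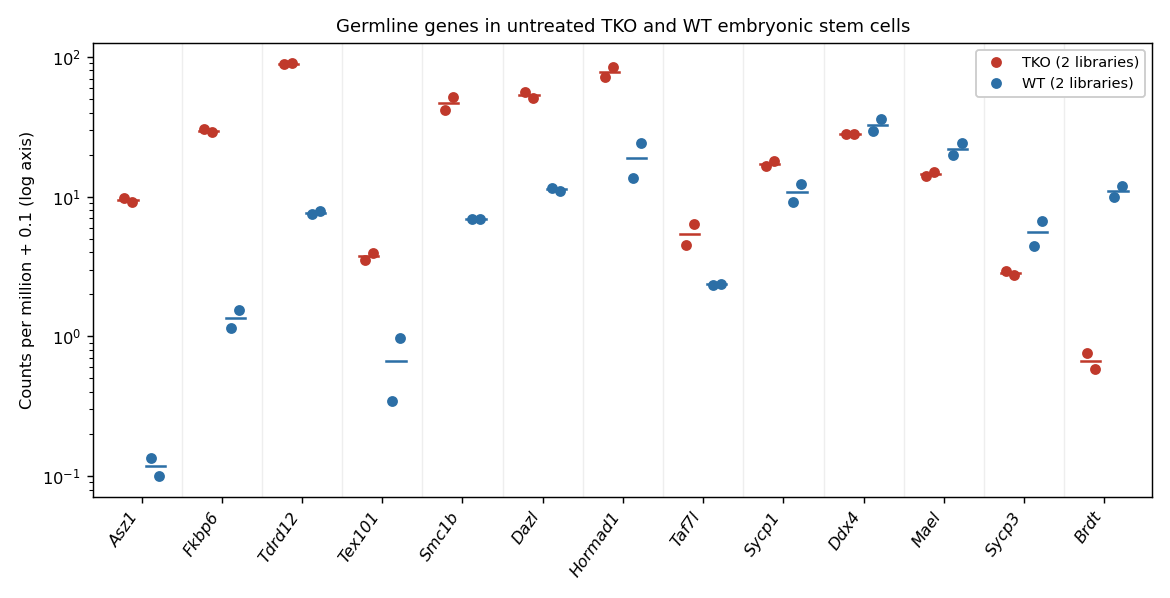
CPM plus 0.1, on a log axis, for 13 germline genes in the 2 TKO libraries (red, left of each pair) and the 2 WT libraries (blue, right); each point is a library and each line a group mean. Asz1 had 9.63 and 9.05 CPM in TKO cells against 0.0351 and 0 CPM in WT cells, Ddx4 was not called, and Brdt was lower in TKO cells.

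Promoter sequences of 4 of these genes that rose and of 2 that did not are shown, so that the CpG sites of both kinds can be compared. Each is the 300 bases from 250 before to 50 after the first listed RefSeq start (build GRCm38.p6), 5′ to 3′ on the gene's strand, with every CpG site in capitals. Those that rose were Asz1 (chr6:18109012-18109311, minus strand), Fkbp6 (chr5:135349995-135350294, minus strand), Dazl (chr17:50293571-50293870, minus strand) and Hormad1 (chr3:95559427-95559726, plus strand).
Asz1: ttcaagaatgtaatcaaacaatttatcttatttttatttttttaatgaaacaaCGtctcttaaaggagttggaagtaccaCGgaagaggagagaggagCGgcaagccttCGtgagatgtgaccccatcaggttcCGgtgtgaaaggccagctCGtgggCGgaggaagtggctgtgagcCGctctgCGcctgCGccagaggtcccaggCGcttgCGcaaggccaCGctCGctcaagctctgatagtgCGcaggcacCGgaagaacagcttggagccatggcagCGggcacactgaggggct
Fkbp6: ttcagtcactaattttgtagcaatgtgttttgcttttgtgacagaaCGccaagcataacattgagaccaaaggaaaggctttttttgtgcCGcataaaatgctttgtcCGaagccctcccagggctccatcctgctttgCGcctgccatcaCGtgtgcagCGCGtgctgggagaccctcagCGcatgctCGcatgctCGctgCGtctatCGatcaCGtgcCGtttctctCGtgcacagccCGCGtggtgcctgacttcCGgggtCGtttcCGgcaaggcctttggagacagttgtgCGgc
Dazl: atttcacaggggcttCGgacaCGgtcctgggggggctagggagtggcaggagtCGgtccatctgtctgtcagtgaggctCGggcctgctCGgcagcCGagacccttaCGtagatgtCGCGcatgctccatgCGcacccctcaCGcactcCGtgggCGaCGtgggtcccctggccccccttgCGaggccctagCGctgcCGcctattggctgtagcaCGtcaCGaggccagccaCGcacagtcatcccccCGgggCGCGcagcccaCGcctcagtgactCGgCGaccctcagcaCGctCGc
Hormad1: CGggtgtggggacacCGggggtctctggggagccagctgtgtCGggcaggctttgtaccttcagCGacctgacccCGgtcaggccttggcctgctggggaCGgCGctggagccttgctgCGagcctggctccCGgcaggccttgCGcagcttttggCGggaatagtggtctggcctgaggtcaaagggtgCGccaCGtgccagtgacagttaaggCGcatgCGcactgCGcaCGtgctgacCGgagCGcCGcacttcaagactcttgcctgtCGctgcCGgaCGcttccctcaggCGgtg
The others were Brdt (chr5:107330944-107331243, plus strand), which fell, and Ddx4 (chr13:112652261-112652560, minus strand), which was not called.
Brdt: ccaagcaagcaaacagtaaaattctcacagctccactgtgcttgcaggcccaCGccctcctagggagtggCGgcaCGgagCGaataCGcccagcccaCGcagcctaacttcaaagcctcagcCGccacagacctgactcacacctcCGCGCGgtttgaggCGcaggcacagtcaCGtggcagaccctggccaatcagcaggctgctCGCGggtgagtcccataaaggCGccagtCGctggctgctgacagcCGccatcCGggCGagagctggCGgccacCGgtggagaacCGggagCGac
Ddx4: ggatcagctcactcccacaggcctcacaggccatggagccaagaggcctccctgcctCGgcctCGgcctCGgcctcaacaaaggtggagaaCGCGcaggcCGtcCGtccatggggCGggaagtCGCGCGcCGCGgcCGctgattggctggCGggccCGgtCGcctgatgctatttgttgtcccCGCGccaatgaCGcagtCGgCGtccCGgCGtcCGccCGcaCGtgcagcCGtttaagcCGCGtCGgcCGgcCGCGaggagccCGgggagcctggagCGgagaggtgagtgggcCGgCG
The windows held 17 CpG sites at Asz1, 21 at Fkbp6, 28 at Dazl, 24 at Hormad1, 23 at Brdt and 38 at Ddx4. Brdt thus had a CpG number between those of Fkbp6 and Hormad1, and Ddx4 the highest of the 6. Over the 40 listed germline genes with a promoter in the table, the median ratio of observed to expected CpG was 0.75 at the 24 that rose and 0.74 at the 16 that did not.

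The letters CACGTG, an E-box of the kind bound by MAX and MGA, stood on either strand in 16 of the 40 promoters, against 9.95% of the promoters of all tested protein-coding genes. The letters GCGGGAA or their reverse complement, a form of the site bound by E2F proteins, stood in 11 of the 40 (27.5%), against 8.52%. Both motifs can occur in one promoter, and 6 of the 40 held both. The E-box letters were found in 9 of the 24 promoters of genes that rose (37.5%) and in 7 of the 16 others (43.8%). In the windows printed above, Fkbp6, Hormad1, Brdt and Ddx4 held the E-box letters, Hormad1 and Ddx4 also the E2F letters, and Asz1 and Dazl neither. A match is a description of letters in this window and not a bound site.

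Listed repressors of germline genes, a wider group than the proteins that bind those motifs, were mixed. All 23 listed repressors were tested, 8 rose (34.8%) and 7 fell (30.4%), near the 26.5% and 24.8% over all genes. Their median log2 fold change was 0.07. L3mbtl2, a subunit of the noncanonical polycomb complex PRC1.6, had 162 and 169.8 CPM in TKO cells, against 80.1 and 66.7 CPM in WT cells (log2 fold change 1.17 ± 0.105, edgeR adjusted p = 4.07e-06), with Chadl on the other strand. Mga, the scaffold of PRC1.6, had 352 and 343 CPM in TKO cells, against 227 and 203 CPM in WT cells (log2 fold change 0.69 ± 0.108). Its partners Max and E2f6 each fell by 0.40. Without TKO replicate 1 the number that rose was 3, and without TKO replicate 2 the number that fell was 4.

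In the wider meiotic programme the numbers rising and falling were closer. Of 58 listed genes 49 were in the table and 46 tested, 15 rose (32.6%) and 11 fell (23.9%), near the shares over all genes, with a median log2 fold change of 0.17. Meiob, a single-strand DNA binding protein of meiotic recombination, had 2.16 and 2.59 CPM in TKO cells, against 0.386 and 0.484 CPM in WT cells (log2 fold change 2.45 ± 0.366). Terb2, which ties telomeres to the nuclear envelope, had 7.05 and 7.79 CPM in TKO cells, against 1.48 and 2.59 CPM in WT cells (log2 fold change 1.89 ± 0.246). Dmc1, the meiotic recombinase, fell by 1.11, and Mei1, needed for meiotic DNA breaks, had 0.199 and 0.226 CPM in TKO cells, against 0.773 and 0.835 CPM in WT cells (log2 fold change -1.90 ± 0.481). The fall of Mei1 had an adjusted p of 0.0514 without TKO replicate 1. The number of meiotic genes that fell was 5 without TKO replicate 1, 7 without TKO replicate 2 and 5 without WT replicate 2.

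Of 33 piRNA pathway genes in the table, 31 were tested, 15 rose (48.4%) and 7 fell (22.6%), against 26.5% and 24.8% over all genes. Besides Asz1, Fkbp6 and Tdrd12, Morc1, an ATPase needed to silence transposons in male germ cells, had 149.9 and 145 CPM in TKO cells, against 17.7 and 23.7 CPM in WT cells, a difference of 7.13-fold (log2 fold change 2.83 ± 0.126, edgeR adjusted p = 2.39e-08). Gtsf1, a partner of the PIWI proteins, had 6.68 and 6.5 CPM in TKO cells, against 1.44 and 1.76 CPM in WT cells (log2 fold change 2.05 ± 0.224). The PIWI proteins themselves did not share a direction: Piwil2 rose by 0.63, while Piwil4 fell by 1.05 and Piwil1 fell by 1.35 on the log2 scale. Tdrd1, a Tudor-domain protein, fell by 1.08, the opposite direction to Tdrd12.

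Copies of housekeeping genes that are used in the testis were also measured. Of 28 such genes 21 were tested, 12 rose (57.1%) and 2 fell (9.52%), against 26.5% and 24.8% over all genes. Their median log2 fold change was 0.92. As 13 of the 28 were below 1 CPM in both WT libraries, some entered the test through their TKO level. The 2 that fell were Gapdhs and Dnajb13, which overlaps Ucp2 on the other strand. Rpl39l, a ribosomal protein paralogue, had 127 and 130.3 CPM in TKO cells, against 19.7 and 31.1 CPM in WT cells (log2 fold change 2.35 ± 0.1596, edgeR adjusted p = 5.44e-07). Rpl10l, another ribosomal protein paralogue, had 46.7 and 46.1 CPM in TKO cells, against 16.6 and 15.2 CPM in WT cells (log2 fold change 1.54 ± 0.115). Pdha2, the testis form of a pyruvate dehydrogenase subunit, had 1.93 and 3.04 CPM in TKO cells, against 0.0703 and 0.04396 CPM in WT cells (log2 fold change 5.31 ± 0.811). Both TKO libraries were above both WT libraries at these 3 genes. Such copies resemble their parent genes closely, so some of their reads may have been lost or exchanged. Gapdhs, the sperm form of a glycolytic enzyme, fell, with 0.483 and 0.711 CPM in TKO cells, against 2.07 and 2.02 CPM in WT cells (log2 fold change -1.78 ± 0.353), and has an antisense neighbour, Tmem147os.

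X-linked germline gene families had the highest share of rising members among the 27 lists with at least 10 tested. Of 68 listed genes 58 were in the table, and 49 of these were below 1 CPM in both WT libraries. In TKO cells 31 of the 58 reached at least 1 CPM in both libraries. Of the 36 with enough counts to test, 33 rose (91.7%) and 2 fell (5.56%), against 26.5% and 24.8% over all genes. Since genes silent in WT cells entered the test only through their TKO level, these counts describe and do not support. Genes of the X chromosome as a whole had a median log2 fold change of 0.32, against 5.81 for this list (5.13 with genes at 0 in WT cells set at their bound), and the median was 0.04 over the 417 X-linked genes with a WT mean of at least 1 CPM.

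The Xlr genes, a family of testis-expressed proteins related to a synaptonemal complex protein, were at 1 CPM or more in both TKO libraries for 9 of 15 members, while 14 of the 15 were below 1 CPM in both WT libraries. Xlr3c had 36.1 and 33.3 CPM in TKO cells, against 0.211 and 0.703 CPM in WT cells, and Xlr3b had 20.98 and 21.1 CPM in TKO cells, against 0.386 and 0.0879 CPM in WT cells. Xlr5c was at 8.33 and 7.44 CPM in TKO cells with 0 counts in both WT libraries, which is at least 135-fold higher in TKO cells when WT is set at a floor of 3 counts over the group. It overlaps Xlr5a on the same strand. All 9 Xlr genes tested rose, of 15 in the table, where 26.5% of all genes rose. Many of the 9 entered the test through their TKO level. These copies are close to identical in sequence, so reads may have been shared among them or dropped.

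The Rhox cluster encodes homeobox proteins of the reproductive tract. Rhox6 had 23.6 and 21.2 CPM in TKO cells, against 1.33 and 1.76 CPM in WT cells (log2 fold change 3.87 ± 0.174, edgeR adjusted p = 1.02e-08), and Rhox9 had 15.1 and 11.9 CPM in TKO cells, against 0.211 and 0.264 CPM in WT cells (log2 fold change 5.83 ± 0.392). Of 34 Rhox genes in the table, 12 were tested and 11 rose (91.7%, against 26.5% over all genes). In both WT libraries 31 of the 34 were below 1 CPM, so many entered the test through their TKO level. The Magea genes, named for tumour antigens that are normally testis-restricted, were at or near 0 in WT cells, and Magea5 was at least 77.7-fold higher in TKO cells. Mageb16, which WT cells did express, had 59.2 and 48.4 CPM in TKO cells, against 11.3 and 12.6 CPM in WT cells (log2 fold change 2.17 ± 0.142). Nxf3, an X-linked relative of the mRNA export factor, had 24.7 and 27.5 CPM in TKO cells, against 0.211 and 0.132 CPM in WT cells (log2 fold change 7.18 ± 0.396, edgeR adjusted p = 2.00e-09). The 2 that fell were Tex11 and Tex13b, by 0.37 and 1.02 on the log2 scale, and the fall of Tex11 had an adjusted p of 0.0792, 0.201 and 0.155 without TKO replicate 1, TKO replicate 2 and WT replicate 2 in turn, and 0.06 with library size scaling.

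Genes of the 2-cell stage mark the opening of the embryonic genome and a rare state of cultured stem cells. Of 29 in the table, 27 were tested, 24 rose and the other 3 (Eif1a, Sp110 and Spin2c) did not pass the test, where 26.5% of all genes rose. As 21 of the 29 were below 1 CPM in both WT libraries, many entered the test through their TKO level. Zscan4d, a zinc finger protein of that stage, had 11.9 and 17.98 CPM in TKO cells, against 0.703 and 1.36 CPM in WT cells (log2 fold change 3.88 ± 0.348, edgeR adjusted p = 2.28e-06). Zscan4c had 8.19 and 10.8 CPM in TKO cells, against 0.597 and 0.879 CPM in WT cells (log2 fold change 3.70 ± 0.291), and Zscan4f rose by 3.85. Duxf3, the mouse Dux factor that switches on this programme, had 3.01 and 3.75 CPM in TKO cells, against 0.281 and 0.484 CPM in WT cells (log2 fold change 3.16 ± 0.399). Tmem92, a membrane protein gene of the same group, had 19.2 and 21.1 CPM in TKO cells, against 0.316 and 0.352 CPM in WT cells (log2 fold change 5.91 ± 0.387). Both TKO libraries were above both WT libraries at each of these genes, with replicate 2 the higher of the TKO pair. The Zscan4 and Usp17l genes are families of near-identical copies, so the level of any single copy is uncertain.

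Imprinted genes are read from 1 parental copy, the other being shut off directly or indirectly by methylation set in the egg or sperm. Most of those expressed from the paternal copy rose. Of 29 in the table, 25 were tested, 18 rose (72%), 6 were not called and 1 fell (4%). Over all genes 26.5% rose and 24.8% fell. The median log2 fold change of this list was 1.35. In both WT libraries 10 of the 29 were below 1 CPM, so some entered the test through their TKO level. Plagl1, a zinc finger growth regulator with a gene model on the other strand, had 14.4 and 16.8 CPM in TKO cells, against 0.141 and 0.132 CPM in WT cells (log2 fold change 6.80 ± 0.628, edgeR adjusted p = 6.22e-08). Sfmbt2, a placental polycomb-related gene, had 59.9 and 60.02 CPM in TKO cells, against 4.57 and 5.14 CPM in WT cells, a difference of 12.4-fold (log2 fold change 3.63 ± 0.16). Peg3, a zinc finger protein, had 199 and 209.6 CPM in TKO cells, against 26.2 and 24.1 CPM in WT cells (log2 fold change 3.02 ± 0.115, edgeR adjusted p = 9.23e-09). Replicates agreed closely within each genotype at all 3 genes.

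Other paternally expressed genes rose by less. Impact, a regulator of translation, had 235 and 245 CPM in TKO cells, against 56.5 and 66.6 CPM in WT cells (log2 fold change 1.96 ± 0.103), and Mest, a hydrolase gene whose transcript overlaps Copg2, had 139 and 131 CPM in TKO cells, against 38.4 and 32.9 CPM in WT cells (log2 fold change 1.92 ± 0.121). Peg10, a retrotransposon-derived placental gene, had 617 and 598 CPM in TKO cells, against 183 and 189 CPM in WT cells (log2 fold change 1.71 ± 0.146). The exception was Peg12, which fell, with 3.84 and 4.24 CPM in TKO cells, against 11.4 and 11.4 CPM in WT cells (log2 fold change -1.50 ± 0.165, edgeR adjusted p = 1.87e-05). Igf2, the fetal growth factor, was not called: it had 7.87 and 8.05 CPM in TKO cells, against 6.71 and 9.63 CPM in WT cells, and its sign turned with the scaling and with leaving out WT replicate 2.

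Genes expressed from the maternal copy were split. Of 28 in the table, 24 were tested, 9 rose (37.5%) and 10 fell (41.7%), against 26.5% and 24.8% over all genes. Their median log2 fold change was 0.08. H19, the noncoding RNA beside Igf2, had 550.0 and 592 CPM in TKO cells, against 1.23 and 1.05 CPM in WT cells, the smallest p of all genes (edgeR adjusted p = 2.01e-11). It was 495-fold higher in TKO cells, and its WT libraries held 35 and 24 counts. It overlaps Mir675 on the same strand. Meg3, another maternally expressed noncoding RNA, which contains the microRNA gene Mir770, had 188 and 245 CPM in TKO cells, against 48.3 and 31.6 CPM in WT cells (log2 fold change 2.43 ± 0.194), and Atp10a, a lipid flippase gene, had 23.1 and 22.7 CPM in TKO cells, against 0.773 and 0.703 CPM in WT cells (log2 fold change 4.94 ± 0.2096).

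The maternally expressed genes that fell included a run from 1 domain on chromosome 7, the one around Kcnq1. Cdkn1c, an inhibitor of the cell cycle with a gene model on the other strand, had 41.01 and 50.2 CPM in TKO cells, against 128 and 214 CPM in WT cells (log2 fold change -1.91 ± 0.209, edgeR adjusted p = 2.18e-05). Kcnq1, a potassium channel gene that overlaps the antisense RNA Kcnq1ot1, had 0.0284 and 0.162 CPM in TKO cells, against 0.949 and 1.58 CPM in WT cells (log2 fold change -3.72 ± 0.745). Phlda2, which limits placental growth, had 23.4 and 19.3 CPM in TKO cells, against 46.1 and 41.8 CPM in WT cells (log2 fold change -1.04 ± 0.1998), and Slc22a18, a transporter gene, had 1.34 and 1.94 CPM in TKO cells, against 5.23 and 4.48 CPM in WT cells (log2 fold change -1.58 ± 0.283). Cd81, Tssc4 and Nap1l4 in the same domain fell by 0.79, 0.65 and 0.42 on the log2 scale. Of its other listed members, Ascl2, a placental transcription factor, rose by 1.66, and Osbpl5, Tnfrsf23 and Dhcr7 were not called. This domain was singled out after its values were seen, and in cells of the same genotypes given vehicle the log2 fold changes of Cdkn1c, Phlda2 and Slc22a18 were -0.31, -0.15 and -0.33. Those of Kcnq1, Cd81, Tssc4 and Nap1l4 under vehicle were -3.64, -0.73, -0.61 and -0.62.

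**Figure D2:**
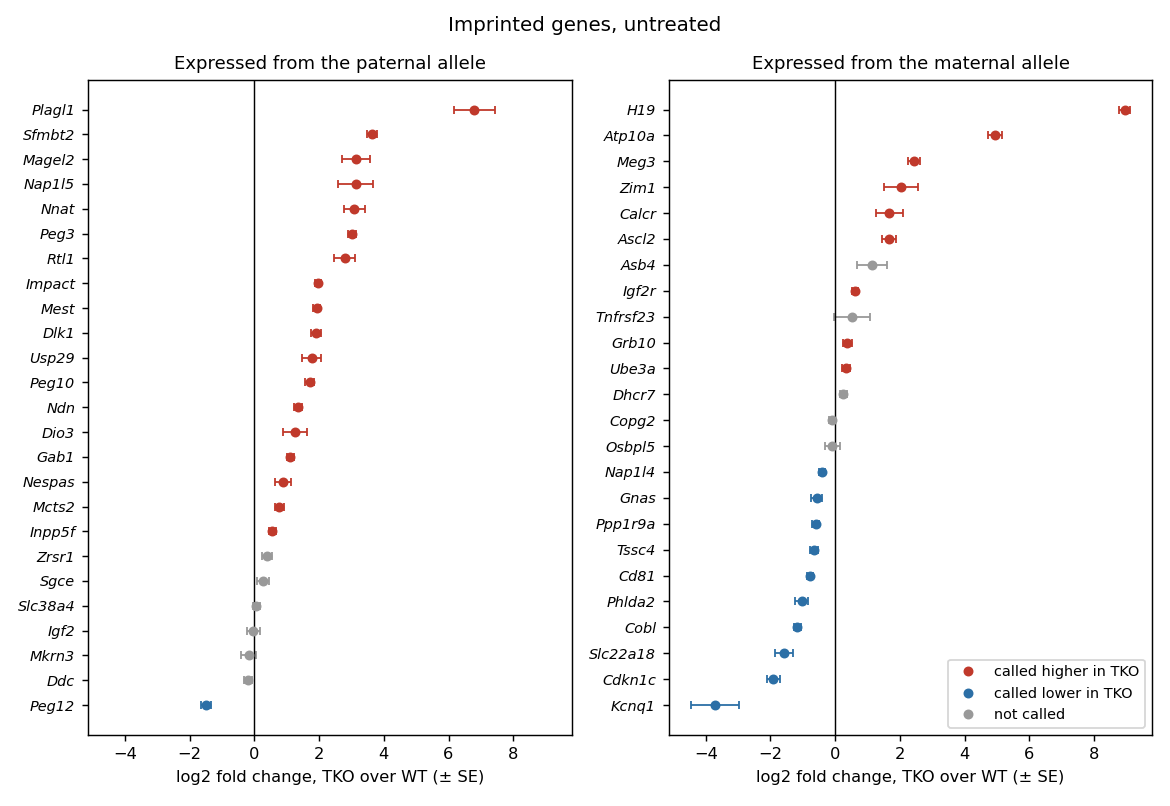
Log2 fold change of TKO over WT with its SE for the tested imprinted genes, those expressed from the paternal copy on the left and from the maternal copy on the right, coloured by the edgeR call. On the left 18 of 25 genes were called higher and 1, Peg12, lower; on the right 9 of 24 were called higher and 10 lower.

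Pluripotency factors shifted in level without being lost. Of 41 naive pluripotency genes, all tested, 14 rose (34.1%) and 16 fell (39%), against 26.5% and 24.8% over all genes. The core factors fell slightly: Pou5f1, with Gm19553 on the other strand, had 569.6 and 589 CPM in TKO cells, against 774 and 768 CPM in WT cells (log2 fold change -0.41 ± 0.0946), Nanog had 679 and 582 CPM in TKO cells, against 823 and 894 CPM in WT cells (log2 fold change -0.45 ± 0.121) and Sox2 had 519 and 507 CPM in TKO cells, against 698 and 630.5 CPM in WT cells (log2 fold change -0.37 ± 0.1001). Their edgeR adjusted p values were 0.0034, 0.00923 and 0.00834. Each of the 3 lost its call when 1 library was left out. Pou5f1 had an adjusted p of 0.0596 without TKO replicate 1, Nanog 0.137 without TKO replicate 2, and Sox2 0.0641 and 0.0919 without TKO replicates 1 and 2 in turn.

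Larger differences were measured at other factors that sustain the naive state. Klf5, a zinc finger factor, had 86.3 and 75.4 CPM in TKO cells, against 684 and 508 CPM in WT cells, 7.37-fold lower in TKO cells (log2 fold change -2.88 ± 0.142, edgeR adjusted p = 5.79e-08). Tbx3, a T-box factor, had 64.01 and 62.4 CPM in TKO cells, against 364 and 382 CPM in WT cells (log2 fold change -2.56 ± 0.118, edgeR adjusted p = 3.28e-08), with Tbx3os1 on the other strand. Tfcp2l1, a naive-state factor on chromosome 1, had 191 and 184 CPM in TKO cells, against 634 and 559.7 CPM in WT cells (log2 fold change -1.67 ± 0.102), and Klf4 had 132 and 167 CPM in TKO cells, against 409 and 464 CPM in WT cells (log2 fold change -1.54 ± 0.195). At each of the 4 genes both TKO libraries lay far below the lower WT library.

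Dppa3 was among the naive genes that rose. It encodes a maternal factor that shields DNA from methylation, and it had 35.4 and 30.6 CPM in TKO cells, against 0.492 and 0.659 CPM in WT cells, a difference of 57.9-fold (log2 fold change 5.85 ± 0.317, edgeR adjusted p = 9.51e-09). Klf2, of the same family as Klf4 and Klf5, had 248 and 307 CPM in TKO cells, against 86.5 and 79.1 CPM in WT cells (log2 fold change 1.75 ± 0.125) and lies on chromosome 8. Lin28a, an RNA-binding pluripotency protein with a gene model on the other strand, had 418 and 402 CPM in TKO cells, against 169.9 and 135 CPM in WT cells (log2 fold change 1.42 ± 0.114), and Fbxo15, a ubiquitin ligase subunit gene of stem cells, had 379 and 349.7 CPM in TKO cells, against 128 and 147 CPM in WT cells (log2 fold change 1.41 ± 0.102).

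Genes of the primed epiblast, the later pluripotent state, mostly rose. Of 30 in the table, 27 were tested, 18 rose (66.7%) and 6 fell (22.2%), against 26.5% and 24.8% over all genes. Their median log2 fold change was 1.08. In both WT libraries 7 of the 30 were below 1 CPM, so some entered the test through their TKO level. Zic2, a zinc finger factor, had 66.8 and 60.2 CPM in TKO cells, against 3.62 and 4.001 CPM in WT cells, a difference of 16.7-fold (log2 fold change 4.06 ± 0.138, edgeR adjusted p = 2.00e-09). Grhl2, an epithelial transcription factor with a gene model on the other strand, had 58.8 and 68.5 CPM in TKO cells, against 3.34 and 2.99 CPM in WT cells (log2 fold change 4.32 ± 0.145, edgeR adjusted p = 1.64e-09). Otx2, a driver of the primed state that overlaps Otx2os1, had 21.6 and 21.9 CPM in TKO cells, against 6.32 and 3.21 CPM in WT cells (log2 fold change 2.17 ± 0.226), and Fgf5, its usual marker, had 0.881 and 1.46 CPM in TKO cells, against 0.105 and 0.2198 CPM in WT cells (log2 fold change 2.86 ± 0.573). The fallers included Etv4, a target of growth factor signalling, with 84.1 and 78.5 CPM in TKO cells, against 209 and 207 CPM in WT cells (log2 fold change -1.35 ± 0.0913), and Dnmt3b itself.

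Trophoblast genes belong to the placental lineage. Of 50 in the table, 36 were tested, 28 rose (77.8%) and 5 fell (13.9%), against 26.5% and 24.8% over all genes. Their median log2 fold change was 1.97. As 29 of the 50 were below 1 CPM in both WT libraries, many entered the test through their TKO level. Hand1, a placental transcription factor, had 6.37 and 5.21 CPM in TKO cells, against 0.316 and 0.2198 CPM in WT cells (log2 fold change 4.39 ± 0.432, edgeR adjusted p = 1.04e-06). Gata3, a trophoblast factor that overlaps other gene models, had 3.89 and 2.65 CPM in TKO cells, against 0.105 and 0.352 CPM in WT cells (log2 fold change 3.90 ± 0.505), and Cdx2, the factor that sets up the lineage, had 1.19 and 1.33 CPM in TKO cells, against 0.316 and 0.176 CPM in WT cells (log2 fold change 2.30 ± 0.517). Tfap2c, a factor shared by trophoblast and germ cells, had 66.3 and 54.5 CPM in TKO cells, against 22.6 and 20.4 CPM in WT cells (log2 fold change 1.49 ± 0.123), and the keratin gene Krt18 had 41.4 and 45.6 CPM in TKO cells, against 8.82 and 10.1 CPM in WT cells (log2 fold change 2.20 ± 0.139). At these 5 genes both TKO libraries were above both WT libraries. Among the 5 fallers, Tead4, which acts ahead of Cdx2 in the embryo, had 11.6 and 9.604 CPM in TKO cells, against 61.7 and 47.3 CPM in WT cells (log2 fold change -2.36 ± 0.161, edgeR adjusted p = 5.25e-07), and Bmp4, a signalling ligand with a gene model on the other strand, had 17.9 and 14.1 CPM in TKO cells, against 88.03 and 76.7 CPM in WT cells (log2 fold change -2.36 ± 0.159). The other fallers were Eomes, Tfeb and Lgals3. All 8 defining trophoblast markers, 7 of them below 1 CPM in both WT libraries, summed to 17.3 and 14.4 CPM in TKO cells, against 5.76 and 6.07 CPM in WT cells. The number of trophoblast genes that fell was 3 without TKO replicate 1, TKO replicate 2 or WT replicate 2.

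Late placental families were among the silent genes that appeared in TKO cells. Tpbpa, a spongiotrophoblast marker, was at 1.17 and 1.58 CPM in TKO cells with 0 counts in WT cells, at least 23.2-fold higher. Ctsj, a placental cathepsin, was at least 36.9-fold higher on the same floor, and Prl4a1, a prolactin-family hormone gene, at least 25.1-fold. All 6 tested members of the prolactin family rose, of 25 in the table, and all 7 genes of the Serpinb9 cluster of protease inhibitors did, where 26.5% of all genes rose. Below 1 CPM in both WT libraries were 24 of the 25 prolactin genes and 5 of the 7 Serpinb9 genes, so many entered the test through their TKO level. Both are families of similar copies on chromosome 13, and these were picked out after their values were seen.

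Endoderm genes tended lower, with the libraries disagreeing within each genotype. Of 31 in the table, 27 were tested, 5 rose (18.5%) and 10 fell (37%), against 26.5% and 24.8% over all genes. Their median log2 fold change was -0.71. Sox7, an endoderm transcription factor, had 2.899 and 2.65 CPM in TKO cells, against 23.8 and 21.4 CPM in WT cells (log2 fold change -3.02 ± 0.258, edgeR adjusted p = 2.75e-06), and here the replicates agreed. Gata6, a primitive endoderm factor with an antisense transcript, had 6.65 and 12.6 CPM in TKO cells, against 15.5 and 31.4 CPM in WT cells (log2 fold change -1.28 ± 0.415, edgeR adjusted p = 0.0235). At Gata6 replicate 2 was about as far above replicate 1 within a genotype as the genotypes were apart, and the groups nearly touched. The call did not pass without TKO replicate 1 (adjusted p = 0.137), without WT replicate 2 (adjusted p = 0.243) or in DESeq2 (adjusted p = 0.145). The 5 endoderm-list genes that rose were Foxa1, Apob, Cited1, Plat and Fst. The number of endoderm genes that fell was 3 in DESeq2, 3 without TKO replicate 1 and 4 without WT replicate 2. The share of endoderm-like cells in the cultures was not tested.

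Among neural genes rises outnumbered falls. Of 29 in the table, 16 were tested, 12 rose (75%) and 2 fell (12.5%), against 26.5% and 24.8% over all genes. Their median log2 fold change was 2.44. As 21 of the 29 were below 1 CPM in both WT libraries, many entered the test through their TKO level. Stmn2, a microtubule regulator of neurons, had 259 and 259.9 CPM in TKO cells, against 15.1 and 13.9 CPM in WT cells, a difference of 17.9-fold (log2 fold change 4.16 ± 0.0988, edgeR adjusted p = 3.44e-10). Pax6, a master factor of eye and brain, had 42.3 and 43.5 CPM in TKO cells, against 0.703 and 0.176 CPM in WT cells, a difference of 91.5-fold (log2 fold change 6.52 ± 0.387, edgeR adjusted p = 1.89e-08). Neurod1, with a possible overlap with Cerkl, had 7.84 and 8.602 CPM in TKO cells, against 0.386 and 0.616 CPM in WT cells (log2 fold change 4.05 ± 0.324). Crmp1, another neuronal cytoskeleton gene and no member of the list, had 96.5 and 112 CPM in TKO cells, against 2.42 and 2.37 CPM in WT cells (log2 fold change 5.44 ± 0.146, edgeR adjusted p = 3.44e-10). All of these stood within a narrow range in the TKO pair. The 5 defining neural markers in the table, 4 of them below 1 CPM in both WT libraries, summed to 146 and 145 CPM in TKO cells, against 68.4 and 69.8 CPM in WT cells. The 2 that fell were Ncam1 and Gfap, and 1 fell when any 1 of the 4 libraries was left out.

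Among transcription factors and signals of later development, rises outnumbered falls among those tested. Of 138 in the table, 77 were tested, 49 rose (63.6%) and 16 fell (20.8%), against 26.5% and 24.8% over all genes. As 107 of the 138 were below 1 CPM in both WT libraries, many entered the test through their TKO level. En2, a midbrain and hindbrain factor, had 28.1 and 29.8 CPM in TKO cells, against 3.02 and 2.73 CPM in WT cells (log2 fold change 3.33 ± 0.144), and Wt1, a kidney and gonad factor, had 8.81 and 9.798 CPM in TKO cells, against 0.246 and 0.616 CPM in WT cells (log2 fold change 4.48 ± 0.349). The groups lay far apart at both. Nkx6-3, a stomach factor, fell below 1 CPM: it had 0.284 and 0.194 CPM in TKO cells, against 19.2 and 15.8 CPM in WT cells, a fall with log2 fold change -6.16 ± 0.344 (edgeR adjusted p = 1.72e-08), although chromosome 8, where it lies, tended upward. Wnt6, a secreted signal on chromosome 1, had 1.68 and 1.71 CPM in TKO cells, against 23.8 and 23.8 CPM in WT cells (log2 fold change -3.81 ± 0.179), and Prrx2, a mesenchymal factor, had 1.99 and 1.88 CPM in TKO cells, against 31.3 and 37.1 CPM in WT cells (log2 fold change -4.14 ± 0.207). Only 11 of 38 Hox genes had enough counts to test. Of these, Hoxa10, Hoxc13, Hoxd1, Hoxd9 and Hoxd13 rose (45.5%) and 3 fell (27.3%), against 26.5% and 24.8% over all genes. In both WT libraries 35 of the 38 were below 1 CPM, so some entered the test through their TKO level. Without the count filter 8 Hox genes rose and 5 fell. In DESeq2 1 fell, and fewer also fell when any of the 4 libraries was left out.

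Mesenchymal genes kept in the fibroblast list did not move as one. Of 32 in the table, 23 were tested, 10 rose (43.5%) and 7 fell (30.4%), against 26.5% and 24.8% over all genes. In both WT libraries 15 of the 32 were below 1 CPM, so some entered the test through their TKO level. Twist1, a mesenchymal factor, had 10.2 and 10.99 CPM in TKO cells, against 0.667 and 1.19 CPM in WT cells (log2 fold change 3.54 ± 0.253), and Acta2, smooth muscle actin, had 3.04 and 4.53 CPM in TKO cells, against 0.0351 and 0.04396 CPM in WT cells (log2 fold change 6.46 ± 1.08). Vim, the vimentin gene, fell, with 103 and 95.98 CPM in TKO cells, against 239 and 188 CPM in WT cells (log2 fold change -1.10 ± 0.117), and Sfrp1, a secreted WNT antagonist, had 27.3 and 34.1 CPM in TKO cells, against 158 and 128 CPM in WT cells (log2 fold change -2.22 ± 0.129, edgeR adjusted p = 1.44e-07).

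Polycomb genes, whose products form the other main silencing system of stem cells, were called at shares near those over all genes. All 43 were tested, 13 rose and 13 fell (30.2% each), and without TKO replicate 2 the number that fell was 7. Scml2, a germline polycomb protein on the X chromosome, had 48.1 and 46.2 CPM in TKO cells, against 1.41 and 1.67 CPM in WT cells, a difference of 30.8-fold (log2 fold change 4.95 ± 0.253, edgeR adjusted p = 2.49e-08). Bcor, the X-linked scaffold of PRC1.1, had 105 and 98.6 CPM in TKO cells, against 19.9 and 15.8 CPM in WT cells (log2 fold change 2.51 ± 0.118, edgeR adjusted p = 3.37e-08). Bmi1, a core PRC1 subunit, had 30.3 and 32.6 CPM in TKO cells, against 7.76 and 10.2 CPM in WT cells (log2 fold change 1.82 ± 0.146). As the naming rule required, these 3 were higher in both TKO libraries than in either WT library. Rnf2, the main ubiquitin ligase of PRC1, fell, with 144 and 142 CPM in TKO cells, against 313 and 371 CPM in WT cells (log2 fold change -1.26 ± 0.104, edgeR adjusted p = 2.13e-06). It lies on chromosome 1 and overlaps Trmt1l on the other strand. Ring1, its paralogue on chromosome 17, fell by 1.01.

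Of 41 interferon response genes tested, 13 rose (31.7%) and 10 fell (24.4%), shares near those over all genes. Ddx58, the RNA sensor RIG-I, had 31.2 and 28.1 CPM in TKO cells, against 5.304 and 4.09 CPM in WT cells (log2 fold change 2.65 ± 0.151, edgeR adjusted p = 1.05e-07), and Ifitm1, a membrane antiviral protein also made by germ cells, had 217 and 232 CPM in TKO cells, against 42.4 and 34.95 CPM in WT cells (log2 fold change 2.54 ± 0.115). Ifit1, a sensor of foreign RNA, appeared at 0.767 and 0.647 CPM in TKO cells with 0 counts in WT cells, at least 12.1-fold higher. Xaf1, a proapoptotic interferon target, fell by 3.55, with 5.97 and 7.79 CPM in TKO cells, against 89.3 and 71.97 CPM in WT cells. Oas2, an enzyme that senses double-stranded RNA, had 2.44 and 2.42 CPM in TKO cells, against 13.4 and 9.19 CPM in WT cells (log2 fold change -2.21 ± 0.229). At each of these 5 genes the groups did not overlap, which the naming rule required of the list members it picked.

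Stress and metabolic genes gave smaller differences. Of 40 integrated stress response genes, all tested, 4 rose (10%) and 21 fell (52.5%), against 26.5% and 24.8% over all genes. Their median log2 fold change was -0.36. Atf4, the transcription factor at the centre of that response, had 62.4 and 75.6 CPM in TKO cells, against 244 and 292 CPM in WT cells (log2 fold change -1.96 ± 0.124, edgeR adjusted p = 2.80e-07). Trib3, one of its targets, had 11.2 and 12.8 CPM in TKO cells, against 27.3 and 33.9 CPM in WT cells (log2 fold change -1.35 ± 0.145), and Phgdh, the first enzyme of serine synthesis, had 102 and 108 CPM in TKO cells, against 238 and 238 CPM in WT cells (log2 fold change -1.18 ± 0.0988). At all 3 the TKO libraries lay well below the WT libraries. Slc38a2, an amino acid transporter, was the largest riser of the list, with 319.6 and 342 CPM in TKO cells, against 149 and 162 CPM in WT cells (log2 fold change 1.09 ± 0.102). The others that rose were Slc7a11, Slc7a3 and Sesn2, and the number that rose was 2 without TKO replicate 1 or 2.

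Of 35 glycolysis and hypoxia genes 7 rose (20%) and 15 fell (42.9%), against 26.5% and 24.8% over all genes. Fewer fell without TKO replicate 1. Vegfa, the vascular growth factor, had 19.8 and 25.7 CPM in TKO cells, against 81.5 and 89.4 CPM in WT cells (log2 fold change -1.91 ± 0.172), and Hk1, a hexokinase that overlaps Hk1os, had 46.4 and 46.9 CPM in TKO cells, against 121 and 95.9 CPM in WT cells (log2 fold change -1.22 ± 0.115), while Eno1, an enolase, rose by 0.75. Of 28 cholesterol synthesis genes 4 rose (14.3%) and 9 fell (32.1%). Pmvk, a kinase of the pathway, had 27.1 and 25.2 CPM in TKO cells, against 78.6 and 67.6 CPM in WT cells (log2 fold change -1.48 ± 0.111). The number that rose there was between 1 and 7 when 1 library was left out. Of 25 heat shock chaperones 5 rose (20%) and 4 fell (16%), both below the shares over all genes. Bag3, a co-chaperone, was the largest riser at 1.58. Cryab, a small heat shock protein that overlaps Hspb2 on the other strand, was the largest faller at -1.76.

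Of 36 tested p53 targets 12 rose (33.3%) and 11 fell (30.6%), near the 26.5% and 24.8% over all genes. Fewer fell without TKO replicate 2. Trp73, a relative of p53 that overlaps Trp73os, had 9.81 and 8.89 CPM in TKO cells, against 1.3 and 0.747 CPM in WT cells (log2 fold change 3.16 ± 0.252), while Pmaip1, the death factor NOXA, had 20.8 and 19.4 CPM in TKO cells, against 66.1 and 68.9 CPM in WT cells (log2 fold change -1.75 ± 0.113). In the cell cycle list 10 of 42 rose (23.8%) and 11 fell (26.2%), again near the shares over all genes. Cdkn2a, which encodes the inhibitors p16 and p19ARF, had 15.1 and 15 CPM in TKO cells, against 0.492 and 0.572 CPM in WT cells, a difference of 28.3-fold (log2 fold change 4.82 ± 0.236, edgeR adjusted p = 7.45e-09). Of the D cyclins, Ccnd2, with gene models on the other strand, had 62.4 and 48.6 CPM in TKO cells, against 8.43 and 7.61 CPM in WT cells (log2 fold change 2.79 ± 0.2203) and Ccnd3, which overlaps Bysl, had 184 and 172 CPM in TKO cells, against 760.0 and 634 CPM in WT cells (log2 fold change -1.97 ± 0.1098), so they moved apart. The number of cell cycle genes that rose was 6 and 5 without TKO replicates 1 and 2, and the number that fell 5 and 4, with 7 falling without WT replicate 1 or with library size scaling.

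Mitochondrially encoded genes could not be compared reliably. Of 14 tested, 1 rose (mt-Rnr1, a ribosomal RNA) and the other 13 did not pass edgeR's test. Without WT replicate 2, the library with the high mitochondrial sum, 10 rose, and without WT replicate 1, 9 fell. Among 3 tested clustered protocadherins only Pcdha11 rose (log2 fold change 1.92). It shares same-strand exons with other Pcdha genes, so its reads cannot be assigned to it alone. Without WT replicate 1 its log2 fold change was 1.27, and it did not pass.

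**Figure D3:**
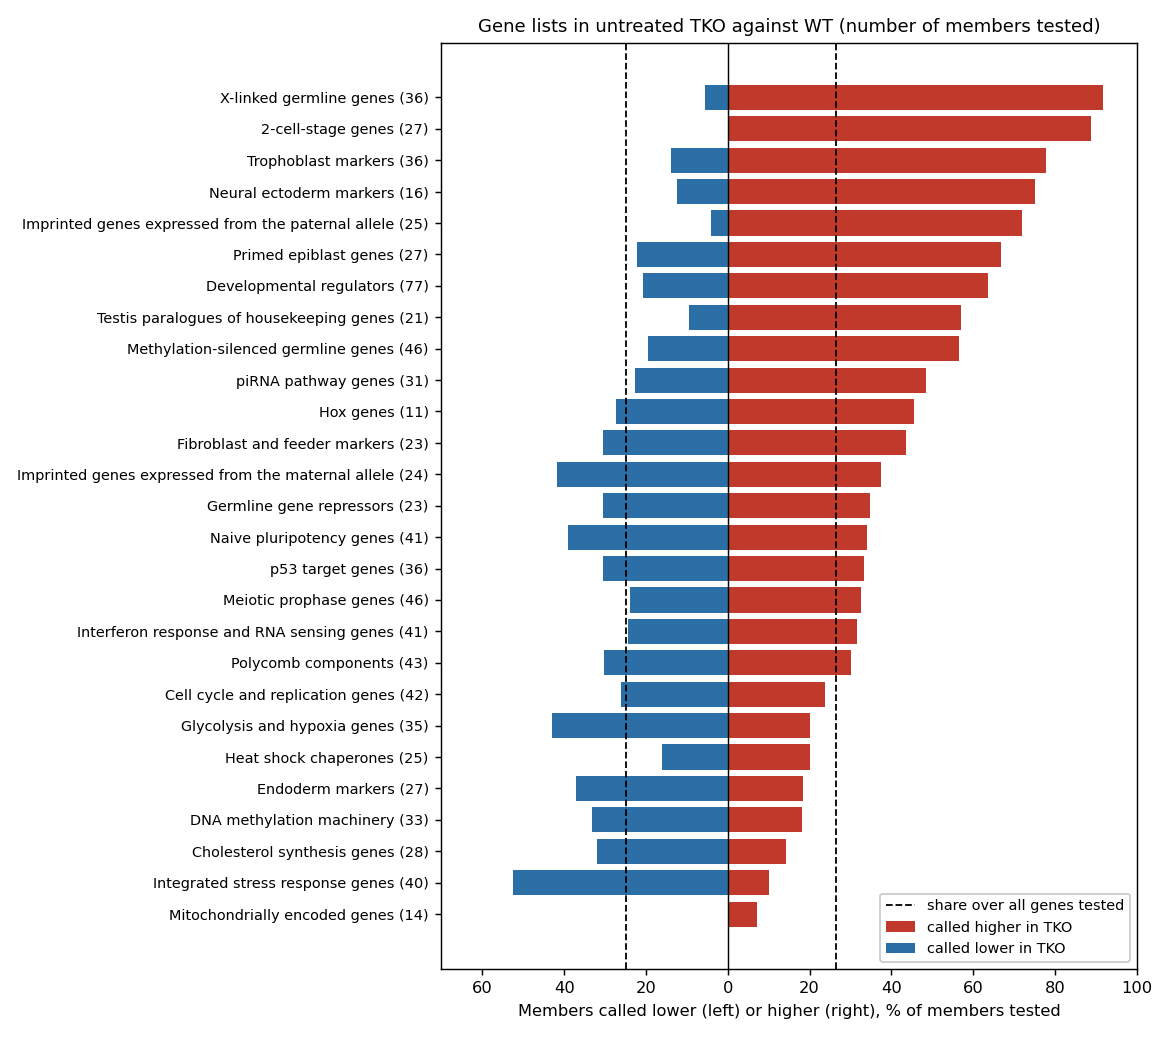
Share of tested members called higher (red, right) and lower (blue, left) in TKO against WT cells for the 27 lists with at least 10 tested members; dashed lines mark the shares over all genes tested, 26.5% higher and 24.8% lower. X-linked germline and 2-cell-stage genes stand at the top, and integrated stress response genes have the widest bar to the left.

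The largest changes outside these lists were also read off by rule. Klhl13, an X-linked ubiquitin ligase adaptor, had 512 and 478 CPM in TKO cells, against 11 and 13.2 CPM in WT cells (log2 fold change 5.36 ± 0.114, edgeR adjusted p = 3.44e-10), with a same-strand overlap with a gene model. Lncenc1, a long noncoding RNA of naive stem cells, had 344 and 363 CPM in TKO cells, against 14.6 and 14.7 CPM in WT cells (log2 fold change 4.59 ± 0.106, edgeR adjusted p = 3.44e-10). Dnajc5g, a testis-expressed co-chaperone, was at 5.77 and 6.69 CPM in TKO cells with 0 counts in both WT libraries, at least 106-fold higher. Ptn, a secreted growth factor, was at least 35.6-fold higher on the same floor. The 15 largest rises also included Magea5, Magea8, Rhox2a and Xlr5c, which are X-linked, the placental genes Ctsj and Prl2c5, and the Y-linked genes Zfy1 and Usp9y.

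Large falls were fewer than large rises, as counted above. Rhobtb1, a BTB-domain protein, had 0.682 and 0.647 CPM in TKO cells, against 16.1 and 17.1 CPM in WT cells (log2 fold change -4.63 ± 0.318, edgeR adjusted p = 2.56e-07), and overlaps an antisense transcript, A930033H14Rik. Islr2, a neuronal surface protein that overlaps Islr on the same strand and a gene model on the other, had 5.14 and 5.37 CPM in TKO cells, against 131 and 118 CPM in WT cells, 23.7-fold lower in TKO cells (log2 fold change -4.57 ± 0.129, edgeR adjusted p = 7.97e-10). For both genes the groups were far apart. Igsf21, a synaptic adhesion protein, had 3.01 and 3.27 CPM in TKO cells, against 76.4 and 65.2 CPM in WT cells (log2 fold change -4.50 ± 0.148, edgeR adjusted p = 2.00e-09). Hal, an enzyme that breaks down histidine, had 2.19 and 1.97 CPM in TKO cells, against 35.6 and 31.8 CPM in WT cells (log2 fold change -4.01 ± 0.173), and Cavin1, a caveola coat protein, had 27.1 and 26.4 CPM in TKO cells, against 179.6 and 176 CPM in WT cells (log2 fold change -2.74 ± 0.0997). Prss27, a serine protease, had 0 counts in both TKO libraries against 1.34 and 1.54 CPM in WT cells, at least 31.4-fold lower.

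Counted without any filter, genes silent in WT cells and present in TKO cells far outnumbered the reverse. Of 19798 genes below 0.1 CPM in both WT libraries, 97 reached at least 1 CPM in both TKO libraries (0.49%). Of 19070 genes below 0.1 CPM in both TKO libraries, 5 stood at or above 1 CPM in both WT libraries (0.0262%). The 5 were Fam20a, Cacng5, Prss27, Gm16063 and A930033H14Rik. Of the 97, 82 were protein-coding, 28 were X-linked (28.9%, where X-linked genes made up 8.18% of the silent set) and 3 were Y-linked. Only 28 of the 97 were in any list used here. In the cells given vehicle, 54 of the 97 met both criteria again.

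Promoter CpG content was read as the ratio of observed to expected CpG in the 300-base RefSeq window of 11265 of the 13744 tested protein-coding genes outside chromosome 18 and the mitochondrial genome (82.0%), cut into quartiles. In the quartile poorest in CpG, with ratios up to 0.534, 25.9% of genes rose and 12.1% fell by more than 2-fold. In the richest quartile, with ratios from 0.903, these shares were 6.64% and 5.47%. Among genes averaging at least 10 CPM over the 4 libraries, 9.78% rose and 9.06% fell in the poorest quartile, and 2.72% rose and 4.19% fell in the richest. Genes with CpG-poor promoters thus had larger shares of big changes in both directions, but the excess of rises over falls among them was small at well expressed genes and turned where they were picked by their WT level: among genes with a WT mean of at least 10 CPM, 5.3% rose and 12% fell by more than 2-fold in the poorest quartile. These shares are descriptions with no test, and level and CpG content vary together.

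**Figure D4:**
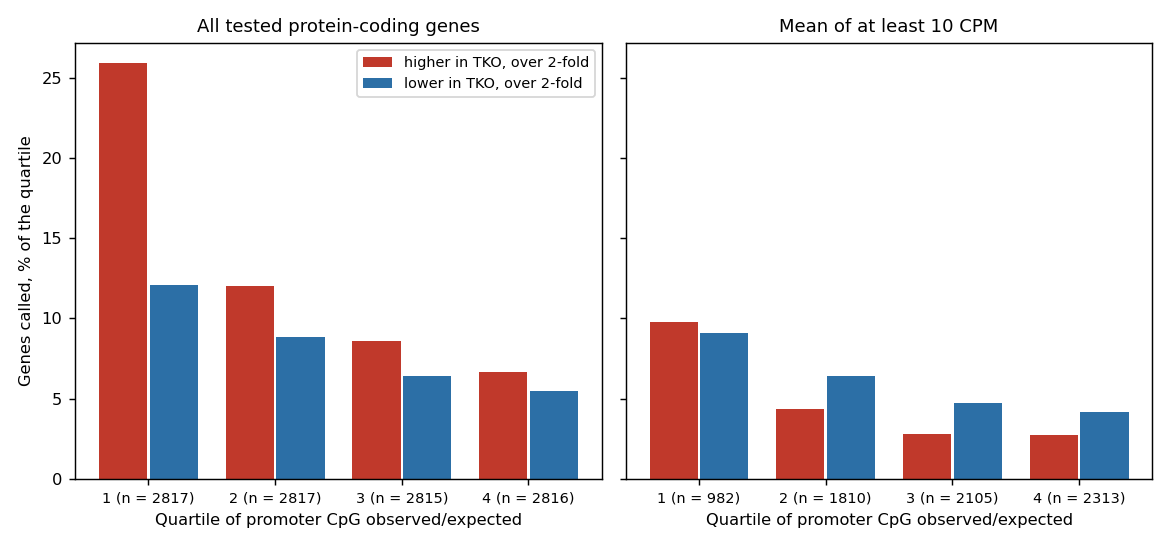
Share of protein-coding genes called higher (red) and lower (blue) by more than 2-fold in TKO against WT cells, by quartile of the promoter's observed over expected CpG ratio from poorest (1) to richest (4), for all tested genes (left) and for those averaging at least 10 CPM (right). The poorest quartile has 25.9% higher and 12.1% lower on the left, and 9.78% and 9.06% on the right.

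Calls were not spread evenly over the chromosomes. On chromosome 1, 14.9% of 832 tested genes rose and 54.9% fell. On chromosome 8, 41.9% of 812 rose and 14.9% fell, and the excess did not reach the end of the chromosome: in 4 equal parts by gene order the median log2 fold changes were 0.45, 0.52, 0.23 and -0.06. Chromosome 1 was low throughout, at -0.59, -0.51, -0.50 and -0.27. On the X chromosome 45.6% of 607 genes rose and 13.7% fell. Among the 417 X-linked genes with a WT mean of at least 1 CPM, 31.7% rose and 19.9% fell, with a median log2 fold change of 0.04. This median was still 0.11 above that of genes picked by the same WT level on autosomes other than 1 and 8. Ddx3y, a Y-linked RNA helicase, had 124 and 104 CPM in TKO cells, against 1.44 and 2.07 CPM in WT cells, and Uty, a Y-linked histone demethylase homologue, had 43.4 and 41.7 CPM in TKO cells, against 0.421 and 0.659 CPM in WT cells, so WT libraries held few Y-linked transcripts and the groups lay far apart. Xist, the noncoding RNA that silences an X chromosome in females, had 7.62 and 8.796 CPM in TKO cells, against 3.48 and 4.79 CPM in WT cells (log2 fold change 1.00 ± 0.338, edgeR adjusted p = 0.0274) and overlaps Tsix. That call did not pass in DESeq2 (adjusted p = 0.118), without TKO replicate 2 (0.0946) or without WT replicate 1 (0.174). Whether chromosome copy number differed between the lines was not tested.

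**Figure D5:**
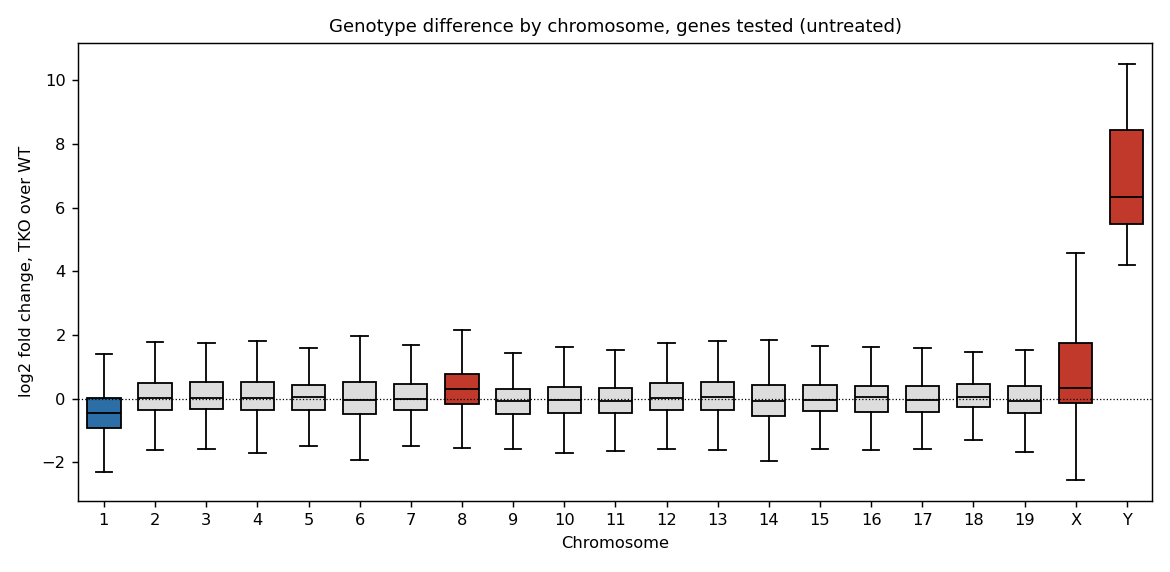
Log2 fold change of TKO over WT for the genes tested on each chromosome; boxes span the interquartile range with the median as a line, whiskers reach the farthest gene within 1.5 box lengths, and single genes beyond are not drawn. Chromosome 1 (blue) has a median of -0.46, chromosomes 8 and X (red) have medians of 0.29 and 0.32, and the 7 Y-linked genes (red) one of 6.32.

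The same genotypes had also been given vehicle (DMSO) in another experiment of the series, in libraries of their own. There 5718 of 15684 genes rose (36.5%) and 5533 fell (35.3%) in TKO cells. Of the 4070 genes that rose in untreated TKO cells and were tested there, 3591 rose again (88.2%, and 65.5% of the vehicle risers tested in both), and 88 fell. Of 3854 that fell, 3236 fell again (84.0%, and 58.8% of the vehicle fallers), and 69 rose. Asz1 (log2 fold change 8.27 under vehicle), Tdrd12 (3.07), Peg3 (3.78), Klf5 (-2.95), Scml2 (4.79) and Brdt (-3.07) kept their direction. The median over the 2-cell-stage genes was 3.7 over the 27 tested in untreated cells (3.41 with genes at 0 in WT cells set at their bound). Over the 26 of them also tested under vehicle it was 5.6 there, with no bound set.

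The genotype difference itself was then compared between the experiments in 1 fit. It was larger (more positive) in untreated cells at 920 of 16376 genes (5.62%) and smaller at 816 (4.98%), and it differed by more than 2-fold in these directions at 0.708% and 2.4% of genes. These counts were unstable: they ranged from 176 to 2244 and from 288 to 1492 when 1 of the 8 libraries was left out, and library size scaling gave 314 and 1129. Zscan4c was among the genes that differed, with a log2 fold change of 3.70 in untreated cells against 6.64 under vehicle (difference -2.91, edgeR adjusted p = 0.0204). Xist differed too, with 1.00 in untreated cells against 4.05 under vehicle (difference -3.02, edgeR adjusted p = 5.58e-05). Vehicle and experiment cannot be told apart in this comparison.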

How the data were processed

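Poly(A)-selected RNA of J1 embryonic stem cells was made into libraries with NEBNext Ultra reagents, per the labels' protocols. The authors deposited whole-number counts of reads per gene and library, without normalization, in 2 tables, 1 per experiment. Per the submitters' processing notes, the tools were TopHat2 2.0.2, Bowtie 0.12.8 and HTSeq 0.5.3p9, on build mm9. How strand was handled and which gene annotation was counted is not given in the sources used here.

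Counts of 6 libraries (TKO, Tet1KO_TKO and WT, 2 each) were fitted with edgeR 4.0.16 (limma 3.58.1, R 4.3.3) using TMM factors and the quasi-likelihood test, TKO against WT. The filter (filterByExpr, minimum count 10, minimum total 15) was applied to the 4 TKO and WT libraries. The biological coefficient of variation was 10.5%. DESeq2 1.42.0, other scalings and filters, and leaving out each library were alternatives. The fit was first tested on simulated data. The comparison with the vehicle experiment fitted its TKO and WT libraries together with these 4.

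Of 37991 IDs, 32919 matched a symbol, looked up in GENCODE M21 or, for IDs absent from it, in a separate list of gene names. The others held 0.541% to 0.774% of counts. M21 supplied symbols, chromosome membership, gene order and overlaps only, because its build is not mm9. Promoters came from RefSeq (GRCm38.p6). For genes without a count in either library of a genotype, fold bounds assume 3 counts over both libraries (0.0852 and 0.0969 CPM for 3 counts in a TKO library, 0.105 and 0.132 CPM in a WT library), which covers counting error only.

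Genes were named by rule: a set of anchor genes, up to 4 called members per direction of each list with the smallest p and groups that did not overlap, the 15 largest rises and falls among symbols other than gene models, the 5 smallest p per direction, and those of them that differed from the vehicle experiment by more than 2-fold. Other genes named were chosen after their values were seen. Members and lists were chosen with earlier results of these data known. Some genes are not reported here.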

Additional observations from a re-analysis of the deposited data

Results flagged for a closer look

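Of the genes named by rule, 26 had a genotype difference in untreated cells that differed from that under vehicle by more than 2-fold (edgeR's test of the difference, adjusted p under 0.05). Each value below is the log2 genotype difference in untreated cells minus that under vehicle. No other sample or file stood out by the rules used. Untreated and vehicle cells also came from different experiments, so vehicle and experiment cannot be told apart.

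The germline, 2-cell-stage and early embryo genes among them were Zscan4c (-2.91), Zscan4d (-2.34), Gm2016 (-1.82), Brdt (-1.14), Nxf3 (2.26), Gapdhs (-2.28) and Dppa3 (1.4). Gapdhs, the sperm glycolytic enzyme, fell in untreated TKO cells and had a log2 fold change of 0.53 under vehicle. Nxf3, the X-linked export factor relative, was 7.18 in untreated cells and 4.96 under vehicle.

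The imprinted genes were H19 (-2.34) and Cdkn1c (-1.57). H19 was higher in TKO cells in both experiments, by 8.95 in untreated cells and 11.32 under vehicle on the log2 scale.

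Lineage genes were Hand1 (-2.61), Krt18 (-1.79) and Tfap2c (-1.58) of the trophoblast list, and Neurod1 (1.65), Gad1 (2.51) and Wt1 (1.34) of the neural and developmental lists. Hand1, the placental factor, was 4.39 in untreated cells and 7.03 under vehicle, and Gad1, which makes the neurotransmitter GABA, was 4.41 and 1.93.

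The others were Ccnd2 (1.5), Gadd45g (-1.41), Ddx58 (1.52), Aldoc (-1.16), Bnip3 (-2.4), Hspa4l (-1.22), Hspb8 (-1.05), Rhobtb1 (-1.85), Ripply3 (-1.04), Xist (-3.02) and Cacng5 (-4.94). Bnip3, a mitochondrial autophagy receptor induced by low oxygen, was 0.68 in untreated cells and 3.11 under vehicle.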

How the results depend on the processing

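Of 237 named genes tested, 233 were called, and 26 of these lost the call under at least 1 of 13 alternatives. Signs turned at 3 genes, none of them called: over fits leaving out 1 library, Uhrf1 ranged from -0.1531 to 0.2198, Tet3 from -0.1349 to 0.0348 and Igf2 from -0.2894 to 0.2447 on the log2 scale, and Igf2 was at 0.0202 with library size scaling. The number of genes called higher was between 3249 and 4143 and the number called lower between 2705 and 3906 when 1 library was left out. DESeq2 gave 3850 and 3495. Library size scaling gave 4465 and 3477, so that 56.2% of calls were higher against 51.6% with TMM. Testing against a 2-fold change gave 1465 and 581, a stricter question by construction. Counts for lists moved by more than 1.5 times in 54 of 754 cases.

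Replicate numbers were entered as a replicate block, which gave 4463 genes higher and 4251 lower. Same-numbered libraries deviated together only weakly (correlations of 0.118, 0.258 and 0.144), and with 2 pairs the numbers alone do not establish a pairing.

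For the difference between experiments, 920 genes lay above and 816 below. Leaving out 1 library gave 176 to 2244 above and 288 to 1492 below, library size scaling 314 and 1129, DESeq2 830 and 701, and the replicate block 879 and 860. With library size scaling 21.8% of these calls lay above, against 53% with TMM, and the median over all genes was -0.114 against 0.004. The cause was not tested. With 2 libraries per group the spread is poorly known, and genes under about 0.1 CPM rest on 3 counts or fewer in a library.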

Other observations

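Of 14097 protein-coding genes tested, 27.2% rose and 25.9% fell in TKO cells. Of 148 lincRNAs tested, 44 rose (29.7%) and 35 fell (23.6%), and of 186 antisense transcripts 41 rose (22%) and 33 fell (17.7%). All lincRNAs together summed to 1970 and 2200 CPM in TKO cells, against 972 and 1120 CPM in WT cells. Such a sum is set mainly by the most abundant members, and the median log2 fold change of the 148 tested was 0.02. Of 369 processed pseudogenes tested, 55 rose (14.9%) and 63 fell (17.1%). Of 985 olfactory receptor genes in the table, 983 were below 1 CPM in both WT libraries and 7 had enough counts to test. Of the 7, 5 rose (71.4%, against 26.5% over all genes), but some entered the test only through their TKO level.

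Replicates differed beyond sampling noise in each genotype of the table. The chi-square of counts per degree of freedom was 7.22 between the TKO libraries, 20.4 between the Tet1KO_TKO libraries and 37.1 between the WT libraries. Pairs of libraries from different groups were not compared in this way.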
